A study of Cricetulus griseus with 5 samples.

Results

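Mitochondrial ribosomal proteins build the ribosome that translates messages of the mitochondrial genome. The data here are the probes whose single gene symbol starts with Mrpl or Mrps followed by a digit. The rule found 76 of the 16504 genes named on the array, with 77 of its 20868 probes: 48 probes of 47 large-subunit (Mrpl) genes and 29 probes of 29 small-subunit (Mrps) genes. The rule uses the gene symbol and no measured value, though this gene group was picked with earlier results of the arrays known. Symbols are those of the mouse genes that the array was built for, and 74 of the 76 occur in RefSeq's gene table of the Chinese hamster.

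The RNA came from A23, a Chinese hamster fibroblast line without thymidine kinase activity that serves as the recipient of donor chromosome fragments in radiation hybrids. In each of 5 hybridisations, A23 total RNA labelled with Cy5 (channel 1) was set against A23 total RNA labelled with Cy3 (channel 2), so all arrays form 1 group with no treated arm. Per the series' design text the arrays are a control for the power to find cis ceQTLs, places in the genome where extra copies alter the transcript of the gene that lies there. The labels number replicates 1 to 5 without saying whether they came from separate flasks or extracts, so p-values reflect the spread between arrays alone, and that spread may be technical. No array carries the dyes the other way round, so a bias of a dye for a sequence cannot be told apart from any other departure from 0. The probes match mouse transcripts, and how well hamster RNA binds each was not tested.

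Each value is a log ratio of the channels, 0 where both gave the same signal. Neither the base nor the channel on top is stated; values are printed as deposited, read as log10 where a fold is given, and described by sign only. No brightness comes with them, so the level of a gene is unknown, and the number of arrays limits the precision. Every array's median over all probes was 0, the SD across all probes was 0.174 on replicate 2 and 0.119 to 0.127 on the others, and an exact 0, which may stand for a failed estimate, filled 6.43% (replicate 4) to 20.8% (replicate 5) of an array. A ratio of a line's RNA to itself cannot show its cell type: of 8 probes of fibroblast markers, 5 of epithelial, 3 of lymphocyte and 2 of macrophage markers, none passed limma's adjusted threshold (3.42% of all probes did), 3, 0, 0 and 2 had an unadjusted p under 0.05 (27.3% of all probes), and 1, 1, 1 and 0 probes of the lists held an exact 0.

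The mitochondrial ribosome, like the bacterial one it derives from, has a small subunit that reads the message and a large subunit that joins amino acids. In mammals it makes membrane proteins of the respiratory chain and ATP synthase, while its own proteins are encoded in the nucleus, made in the cytosol and imported. Many have bacterial counterparts, and others were added in the mitochondrial lineage.

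Most members lay close to a ratio of 0. Over the 77 probes the mean ratio ran from -0.115 for Mrpl11 to 0.106 for Mrpl50, the median was -0.00590 and the interquartile range -0.0305 to 0.0232, against -0.0331 to 0.0451 and a median of 0.00187 over all probes. The median size of the mean ratio, whatever its sign, was 0.0260 over members and 0.0392 over all probes. In limma's moderated test of each probe's mean against 0, with Benjamini-Hochberg adjustment over the whole table, 1 member passed at 0.05 where 3.42% of all probes did; it had a positive ratio (1.41% of all probes) and 0 members passed with a negative one (2.0%). At an unadjusted p of 0.05 the same tool gave 22 members, 10 positive (13.4% of all probes) and 12 negative (13.8%), which at 28.6% is close to the 27.3% of all probes. A single sign on all 5 arrays was seen for 27 members, 13 positive and 14 negative, beside 26.4% of all probes (13.0% positive and 13.4% negative).

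**Figure D1:**
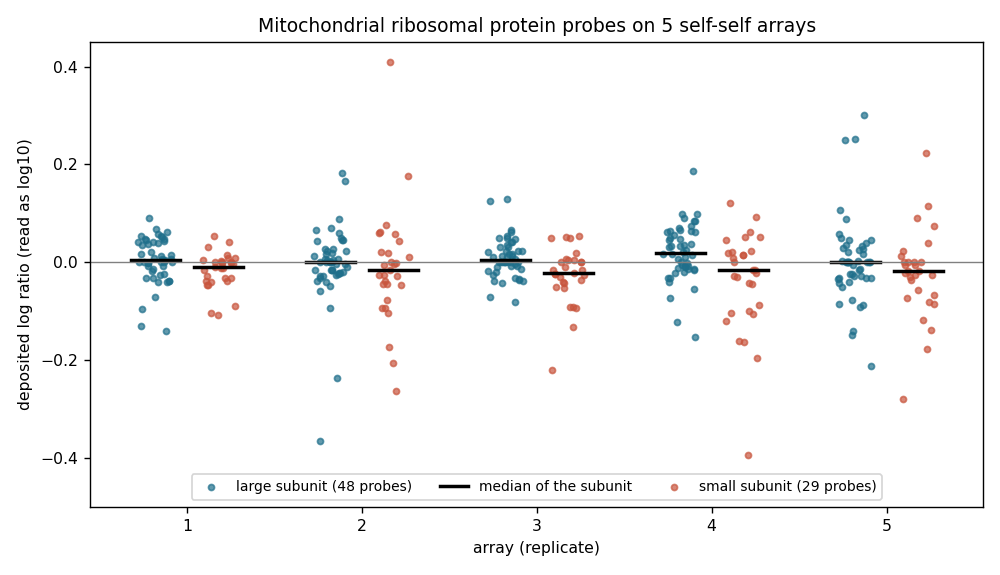
Deposited log ratio (vertical axis, read as log10) of every mitochondrial ribosomal protein probe on each of the 5 arrays (horizontal axis), with 48 large-subunit and 29 small-subunit probes as points and a black bar at each subunit's median. Points gather near 0 on every array, the small-subunit bar lies below the large-subunit bar on each, and the extremes are Mrps25 at 0.410 on replicate 2 and Mrps18b at -0.394 on replicate 4.

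The 1 member called was Mrpl27, the counterpart of a bacterial protein that reaches toward the site of peptide bond formation. Its log ratios were 0.0507, 0.0602, 0.0415, 0.0651 and 0.0394 on replicates 1 to 5. All 5 were positive within a narrow band, with a mean of 0.0514 ± 0.0113 (SD, n = 5), or 1.13-fold if log10 (limma adjusted p = 0.0476). The call was not stable: it was lost when any of the 5 arrays was left out and held in 3 of the 11 alternative settings, with adjusted p in limma from 0.0310 to 0.149.

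Another 10 members had a limma adjusted p between 0.05 and 0.1, 4 with positive and 6 with negative mean ratios. The share of all probes in this range was not counted, so the number does not show an excess among members. At an unadjusted limma p of 0.05 the shares were close, 28.6% of members and 27.3% of all probes. Mrps18c, 1 of 3 paralogues of bacterial S18, gave 0.0538, 0.0624, 0.0489, 0.0932 and 0.0385 on replicates 1 to 5 (limma adjusted p = 0.0545). Mrpl43 gave 0.0420, 0.0447, 0.0668, 0.0985 and 0.0504 (limma adjusted p = 0.0596), and Mrpl14, a counterpart of bacterial L14, 0.0627, 0.0237, 0.0501, 0.0909 and 0.0462 (limma adjusted p = 0.0714). For each of these 3 genes every array was positive and replicate 4 was the highest. Mrpl13 completed the positive ones at 0.0608 ± 0.0365 (SD, n = 5).

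On the negative side of that range, Mrps26, a small-subunit protein without a bacterial counterpart, gave -0.0408, -0.0774, -0.0428, -0.103 and -0.0679 on replicates 1 to 5 (limma adjusted p = 0.0585). Mrps17, the counterpart of bacterial S17, gave -0.108, -0.104, -0.0371, -0.0996 and -0.177 (limma adjusted p = 0.0644). Mrpl52 lay in a tight band at -0.0404, -0.0380, -0.0252, -0.0404 and -0.0285 (limma adjusted p = 0.0648). Every array was negative for all 3, though their sizes differed: the mean was -0.105 for Mrps17, -0.0664 for Mrps26 and -0.0345 for Mrpl52. Mrpl46 at -0.0324 ± 0.0113 (SD, n = 5), Mrps2 at -0.0297 ± 0.00856 and Mrps7 at -0.109 ± 0.0707 were the other negative members here, again negative on each array.

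The 6 lowest mean ratios belonged to members with an SD above the members' median of 0.0353. These SDs ran from 0.0495 for Mrps17 to 0.157 for Mrpl11, against a median of 0.0588 for all probes. Mrpl11, the counterpart of bacterial L11 in the region where translation factors dock, gave -0.130, -0.366, 0.0615, -0.0542 and -0.0851 on replicates 1 to 5, which is 4 negative arrays and 1 positive (mean -0.115; limma adjusted p = 0.302). Mrps10 gave -0.0318, -0.0932, -0.221, -0.196 and -0.00526 (limma adjusted p = 0.161), negative throughout but from near 0 to its lowest value on replicate 3. Mrps7, a protein of the small subunit's head whose gene is mutated in a human mitochondrial disease, gave -0.00926, -0.207, -0.0924, -0.121 and -0.118 (limma adjusted p = 0.0991). Mrps21 gave -0.0390, -0.0377, -0.133, -0.0302 and -0.280 (limma adjusted p = 0.203), where replicate 5 was lowest. Mrps27, an RNA-binding protein of the pentatricopeptide repeat family, gave -0.0329, -0.263, -0.0921, 0.121 and -0.0852, with both signs. These and Mrps17 are the 6 lowest means of the 77.

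At the other end, Mrpl50 had the highest mean with 0.0360, 0.182, 0.0612 and 0.251 on replicates 1, 2, 4 and 5 and an exact 0 on replicate 3 (limma adjusted p = 0.195). Mrpl22, whose bacterial counterpart lines the exit tunnel for the new peptide, gave -0.0389, 0.0499, 0.0469, 0.0477 and 0.300 (limma adjusted p = 0.354). Its mean of 0.0812 thus rested on replicate 5, and without that array the mean was 0.0264. Mrps25 was listed at 0 on replicates 3, 4 and 5 and gave -0.0162 and 0.410 on replicates 1 and 2. Its mean of 0.0788 came from replicate 2 alone, without which it was -0.00406. Mrpl13, Mrpl43 and Mrps18c fill the other places among the 6 highest means.

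**Figure D2:**
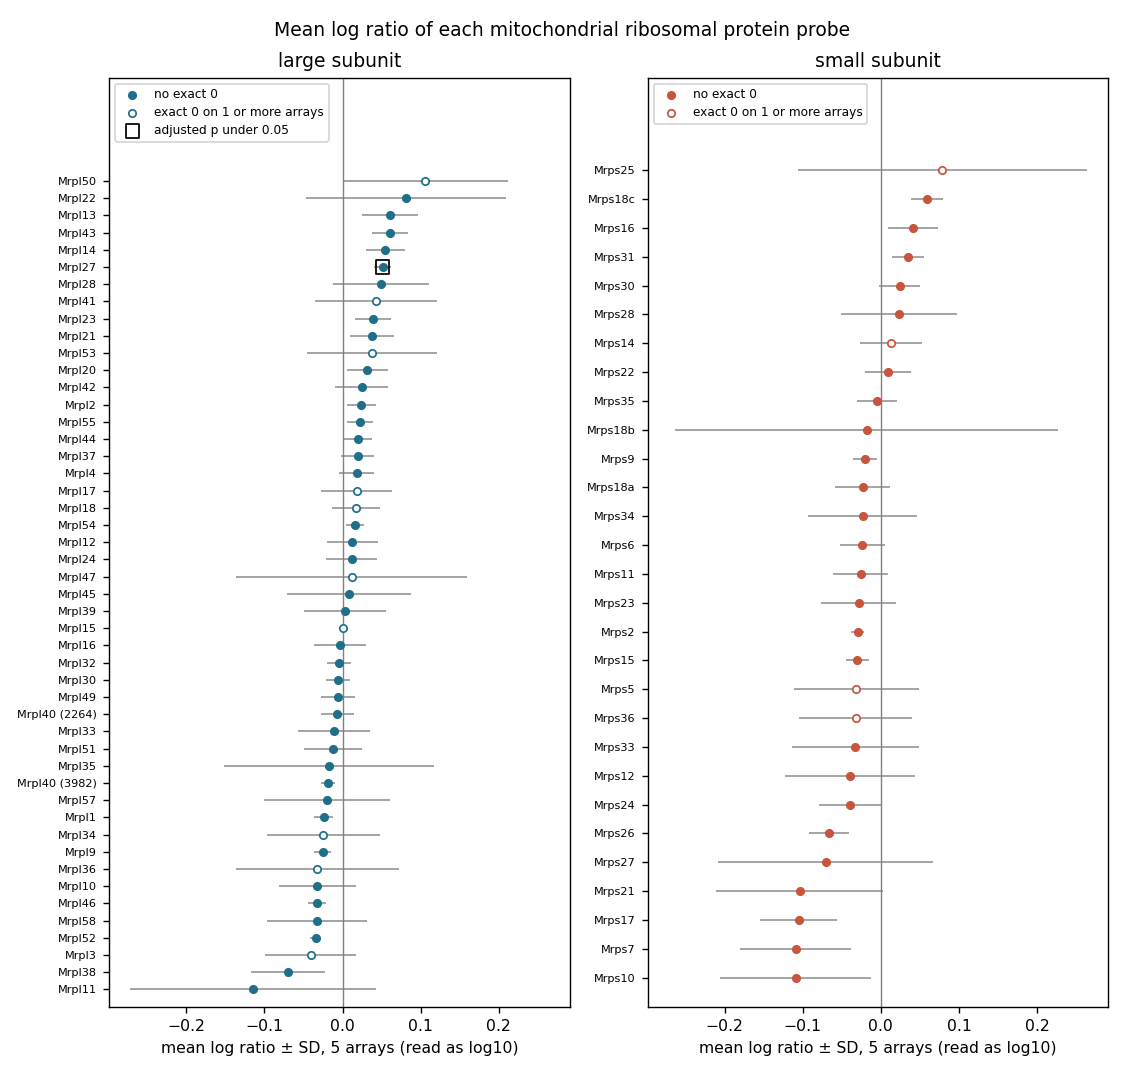
Mean log ratio over 5 arrays (horizontal axis, read as log10; bars are the SD) of each large-subunit (left) and small-subunit (right) probe, ordered by mean; open symbols mark probes with an exact 0 on at least 1 array and the square marks Mrpl27, the 1 probe with an adjusted p under 0.05. Mrpl27 is not the member farthest from 0 but has a short SD bar, and 21 of the 29 small-subunit means lie left of 0.

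The subunits were then set side by side. Of the 48 large-subunit probes 26 had a positive mean, where 51.3% of all probes did, 21 a negative one and Mrpl15 an exact 0, and their median was 0.00998. Of the 29 small-subunit probes 8 had a positive and 21 a negative mean, where 46.8% of all probes were negative, and their median was -0.0260. On replicates 1 to 5 the large-subunit median was 0.00473, 0, 0.00358, 0.0187 and 0, and the small-subunit median -0.00926, -0.0158, -0.0223, -0.0166 and -0.0175. The small-subunit median was therefore negative on each array, and the subunits' ranges of array medians did not overlap. Single probes overlapped widely, with means from -0.115 to 0.106 in the large and -0.109 to 0.0788 in the small subunit. Between array medians, large minus small was 0.0217 ± 0.00884 (SD, n = 5 arrays), from 0.0140 on replicate 1 to 0.0352 on replicate 4. This difference was not tested, because the gene group was picked with earlier results known; it was positive on 5 of 5 arrays. The large-subunit median fell to 0.00297 without replicate 1 and to 0.00279 without replicate 4, while the small-subunit median stayed between -0.0284 and -0.0236 whichever array was left out.

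Within the small subunit, negative means were the majority both without a bacterial counterpart (6 of 9, median -0.0235) and with one (14 of 17, median -0.0297). By array the classes differed. The median with a counterpart was -0.00926, -0.0291, -0.0266, -0.0302 and -0.0172 on replicates 1 to 5, negative on each. The median without one had both signs, at -0.0111, 0.0210, -0.0158, 0.0192 and -0.0373. Of those with a counterpart, Mrps12, which lies at the decoding centre in bacteria, had a mean of -0.0394 ± 0.0837 (SD, n = 5). Mrps24, the counterpart of bacterial S3, was at -0.0399 ± 0.0396. Mrps15 (-0.0305), Mrps11 (-0.0260), Mrps6 (-0.0236) and Mrps9 (-0.0204) followed, of which Mrps15 and Mrps9 were negative on all 5 arrays. The positive ones beside Mrps18c were Mrps16 at 0.0405, positive on each array, and Mrps14, which had an exact 0 on replicate 5 and values from -0.0286 to 0.0769 on the others.

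The 3 S18 paralogues went apart. Mrps18c was positive on every array, Mrps18a had a mean of -0.0231 ± 0.0353 (SD, n = 5) with 1 positive array, and Mrps18b gave -0.0466, 0.177, -0.0513, -0.394 and 0.223 on replicates 1 to 5. Mrps18b had the widest spread of all members, an SD of 0.245 around a mean of -0.0184, with replicates 4 and 5 far out on opposite sides. Mrps18a, and also Mrps30, sits in the large subunit in structures of the mammalian mitochondrial ribosome; counting both there left the large-subunit median at 0.00998 and the small-subunit median at -0.0284.

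The 9 small-subunit probes of proteins without a bacterial counterpart had 6 negative and 3 positive means, with a median of -0.0235. Besides Mrps25, Mrps26 and Mrps27, these were Mrps33 (-0.0328), Mrps23 (-0.0284), Mrps34 (-0.0235), Mrps35 (-0.00531), Mrps22 (0.00894) and Mrps31 (0.0348). Mrps31 was positive on each array, and the others named here had both signs. The 3 small-subunit members that were placed in neither list were Mrps28 at 0.0232, Mrps30 at 0.0242 and Mrps36. Mrps36, since assigned in mammals to the 2-oxoglutarate dehydrogenase complex and not the ribosome, was listed at 0 on 4 arrays and at -0.162 on replicate 4.

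In the large subunit, the 28 probes of proteins with a bacterial counterpart had 15 positive means, 12 negative ones and the exact 0 of Mrpl15, with a median of 0.0117. Among those around the peptide exit tunnel in bacteria were Mrpl22, Mrpl23 at 0.0394 ± 0.0232 (SD, n = 5) and Mrpl24 at 0.0118 ± 0.0326. Mrpl23 was positive on all 5 arrays and Mrpl24 had both signs. The stalk that recruits translation factors is built on Mrpl10, at -0.0322 ± 0.0495, and Mrpl12, at 0.0126 ± 0.0323, which also binds the mitochondrial RNA polymerase. Both had a mean smaller than the spread, unlike Mrpl1 of the opposite stalk, at -0.0239 ± 0.0122 and negative on each array.

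Among the other counterparts of bacterial proteins, positive means were Mrpl28 (0.0497), Mrpl21 (0.0375), Mrpl20 (0.0319), Mrpl2 (0.0239), Mrpl4 (0.0180) and Mrpl47 (0.0116), and negative ones Mrpl9 (-0.0256), Mrpl35 (-0.0171), Mrpl33 (-0.0108), Mrpl30 (-0.00590), Mrpl32 (-0.00473) and Mrpl16 (-0.00273). Mrpl21 and Mrpl20 were positive and Mrpl9 negative on every array. Mrpl32 is a substrate of a mitochondrial inner-membrane protease before it joins the ribosome. Mrpl47 was listed at 0 on replicates 2 and 3 and gave -0.0383, -0.154 and 0.250 on replicates 1, 4 and 5. Mrpl35 ran from -0.238 on replicate 2 to 0.126 on replicate 3, so its mean near 0 hides far-out values of both signs.

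The 18 large-subunit probes of proteins without a bacterial counterpart had 10 positive and 8 negative means, with a median of 0.00564. Positive ones beside Mrpl43, Mrpl50, and Mrpl41 and Mrpl53 (described with the exact zeros) were Mrpl42 (0.0244), Mrpl44 (0.0199), a protein with a ribonuclease III fold, Mrpl37 (0.0194), Mrpl54 (0.0160), Mrpl45 (0.00836), which anchors the ribosome to the inner membrane, and Mrpl39 (0.00293). Mrpl37, Mrpl44 and Mrpl54 were positive on all 5 arrays, though none of them passed an unadjusted p of 0.05 in limma (0.123, 0.0931 and 0.0904 in that order). Mrpl38 had the lowest mean here, at -0.0325, -0.0580, -0.0360, -0.0739 and -0.150 on replicates 1 to 5. It was negative throughout and lowest on replicate 5. Mrpl57 (-0.0199), Mrpl51 (-0.0118) and Mrpl49 (-0.00596) had both signs. Of the 2 large-subunit members in neither list, Mrpl55 had a mean of 0.0223 and Mrpl58, which can release peptides from stalled ribosomes, -0.0328.

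Mrpl40 was the 1 gene with several probes. Feature 3982 gave -0.0133, -0.0162, -0.0175, -0.0130 and -0.0335 on replicates 1 to 5, and feature 2264 gave -0.00200, -0.00410, -0.0192, 0.0240 and -0.0323. The probes had the same sign on 4 of the 5 arrays and parted on replicate 4. Their SDs were 0.00847 and 0.0211, and whether the precision of the probes differs was not tested.

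A list of 13 member genes with variants linked to mitochondrial disease in humans was examined, and it may not be complete. These were Mrpl3, Mrpl12, Mrpl24, Mrpl44, Mrps2, Mrps7, Mrps14, Mrps16, Mrps22, Mrps23, Mrps25, Mrps28 and Mrps34. Their means were positive for 8 and negative for 5, with a median of 0.0118. None passed limma's adjusted threshold (3.42% of all probes did), and 3 (23.1%, near the 27.3% of all probes) had an unadjusted p under 0.05: Mrps16, positive, and Mrps2 and Mrps7, negative. Mrpl3, next to the peptidyl transferase centre in bacteria, was listed at 0 on replicate 5 and lowest on replicate 1 at -0.141.

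Exact zeros were found on at least 1 array for 14 members, 10 of the large and 4 of the small subunit, beside 25.7% of all probes. Mrpl15 was listed at 0 on all 5 arrays. Mrpl53 and Mrps36 each had 1 other value, 0.186 and -0.162, both on replicate 4, the array with the fewest zeros. Mrps5 was listed at 0 on replicates 1, 3 and 5, with -0.174 on replicate 2 and 0.0154 on replicate 4. Mrpl17 and Mrpl18 had 3 zeros each as well, with 0.0983 and -0.00868 for Mrpl17 and 0.0706 and 0.0146 for Mrpl18. Mrpl36, a short zinc-binding protein in bacteria, had 2 zeros and values of -0.0108, 0.0622 and -0.212. Mrpl34 and Mrpl41 had an exact 0 on replicate 5 only, and their other values ran from -0.0950 to 0.0851 and from -0.0409 to 0.167.

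Because the arrays serve to find the power of the experiment, the spread of each member between arrays is the measure it turns on. The median SD over arrays was 0.0353 for the 77 members, 0.0325 for the large and 0.0396 for the small subunit, against 0.0588 for all probes. Among probes with no exact 0 it was 0.0320 for 63 members and 0.0468 for all such probes. Of the members, 52 lay below the median SD of all probes, 29 below its lower quartile and 7 above its upper quartile. After Mrpl15, whose SD of 0 only reflects its zeros, the tightest members were Mrpl52 (0.00714), Mrpl40 feature 3982 (0.00847) and Mrps2 (0.00856). The widest were Mrps18b (0.245), Mrps25 (0.185), Mrpl11 (0.157) and Mrpl47 (0.148), and Mrps25 and Mrpl47 both held exact zeros.

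**Figure D3:**
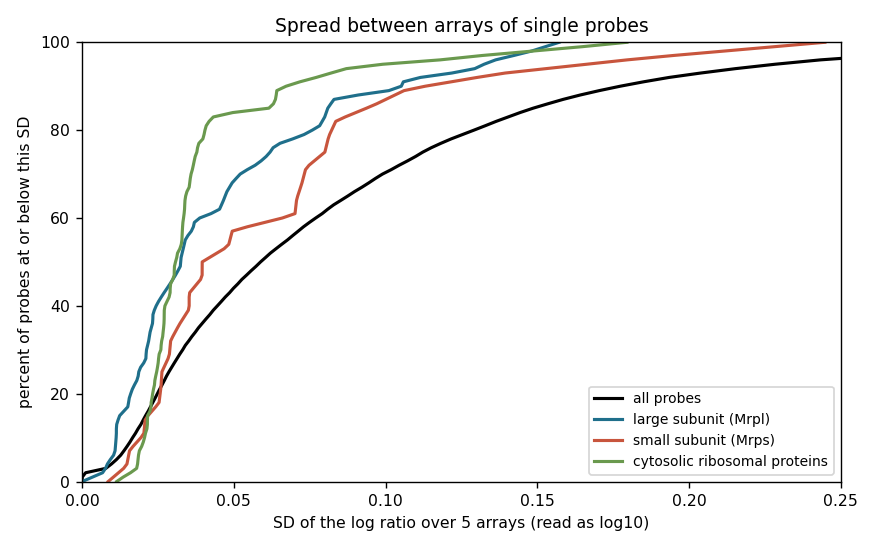
Cumulative percent of probes (vertical axis) at or below a given SD of the log ratio over 5 arrays (horizontal axis, read as log10) for all probes, both mitochondrial ribosomal subunits and cytosolic ribosomal proteins. Both mitochondrial curves lie above that of all probes over most of the range, with medians of 0.0325 and 0.0396 against 0.0588, and the cytosolic curve is the steepest.

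Read as log10, the smallest fold that 5 arrays would detect at a power of 0.8, by a two-sided test of 1 sample's mean with no adjustment (level 0.05), had a median of 1.15 over members and 1.26 over all probes. It was under 1.5-fold for 67 of the 77 members, Mrpl15 included, beside 72.1% of all probes. For 46 members (59.7%) it was under 1.2-fold, beside 41.9% of all probes. For Mrpl27 it was 1.04-fold, for Mrps12 1.38-fold and for Mrps18b 2.58-fold. On single arrays 0, 7, 1, 3 and 7 members lay beyond 1.5-fold on replicates 1 to 5, which is 18 of 385 measurements. In that order this was 0, 9.09, 1.30, 3.90 and 9.09% of members, beside 9.35, 19.3, 8.31, 9.59 and 11.8% of all probes. Of the members 14 lay beyond 1.5-fold at least once, 7 of each subunit, beside 36.3% of all probes. Mrps18b did so on 3 arrays, Mrps10 and Mrpl50 on 2, and the other 11 on 1. Replicate 2, the widest array over all probes, held 7 of the 18 measurements, among them Mrpl11 and Mrps7, and replicate 5 held as many.

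Arrays ranked the members in a loosely similar order. Across the 77 probes, Spearman's rho between 2 arrays ran from 0.189 (replicates 1 and 2) to 0.513 (replicates 3 and 4), with a median of 0.405 over the 10 pairs, and Pearson's r from -0.0276 (replicates 4 and 5) to 0.426 (replicates 3 and 4), with a median of 0.223. Over all probes the medians were 0.385 and 0.368. These are descriptions across probes, which are not independent and share array, dyes and zeros. Single far-out values weigh on r more than on rho. On replicates 4 and 5, the pair with the lowest r, Mrps18b stood at -0.394 and 0.223. How far this probe bears on that r was not tested.

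The mitochondrial ribosome was set beside the cytosolic ribosome and the respiratory chain with ATP synthase. Cytosolic ribosomal proteins had a positive mean for 60 of 74 probes and a median of 0.0441, and 5 passed limma's adjusted threshold, all positive, where 1.41% of all probes passed with a positive ratio. The respiratory chain and ATP synthase had 65 of 84 positive means and a median of 0.0464, and 12 passed, all positive, against the same 1.41%. Unadjusted, 47 and 57 probes of these lists had a limma p under 0.05, against 22 of 77 members and 27.3% of all probes. By array the cytosolic ribosomal median was 0.0261 to 0.0890 and the respiratory median 0.0321 to 0.0736, above the large-subunit median of mitochondrial ribosomal proteins on each of the 5 arrays. All lists come from the same arrays, and the difference between them was not tested. All 3 medians above 0 (large subunit, cytosolic, respiratory) were highest on replicate 4.

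**Figure D4:**
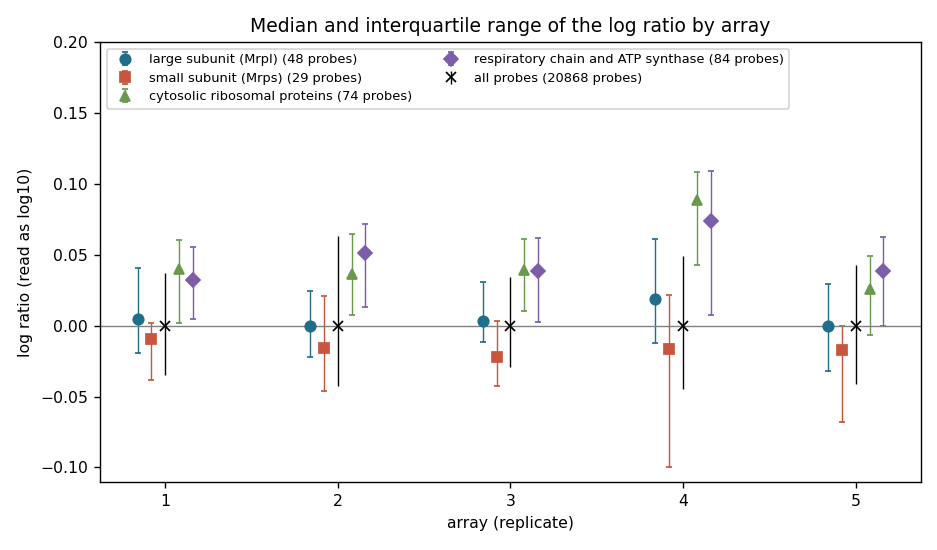
Median log ratio (points; vertical axis, read as log10) and interquartile range (bars) of 4 gene groups and of all probes on each of the 5 arrays (horizontal axis). The small-subunit median lies below 0 on every array, the large-subunit median between 0 and 0.0187, and the cytosolic ribosomal and respiratory medians between 0.0261 and 0.0890.

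Other genes of mitochondrial translation were examined as 4 lists of 52 symbols, of which 42 genes with 43 probes matched. The remaining symbols matched no probe with a single gene symbol, though a gene may be present under another name. In limma's adjusted test 0 of the 43 probes passed, where 3.42% of all probes did, and 11 had an unadjusted p under 0.05, a share close to the 27.3% of all probes. Mitoribosomal proteins under other names had 3 negative means and 1 positive: Dap3 at -0.120 ± 0.126 (SD, n = 5), Chchd1 at -0.0611 ± 0.0328 and Ptcd3 at -0.0203 ± 0.0129, all of the small subunit, and Gadd45gip1, of the large subunit, at 0.0292 ± 0.0147. Chchd1 and Ptcd3 were negative and Gadd45gip1 positive on every array, while Dap3 had 1 positive array, replicate 1.

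Translation factors of the mitochondrion had 8 positive and 3 negative means over 11 probes (median 0.0162), of which Mrrf, the ribosome recycling factor, at 0.0408, and Gfm2, which works with it, at -0.0562 with an exact 0 on replicate 5, had an unadjusted limma p under 0.05. The elongation factor Tufm stood at 0.0120 ± 0.0228 (SD, n = 5). The 16 probes of mitochondrial aminoacyl-tRNA synthetases had 9 positive and 7 negative means (median 0.0162), with Pars2 at 0.179 and Rars2 at -0.0405 the members of smallest p (limma adjusted p = 0.0717 and 0.0644). Transcription and ribosome assembly had 4 positive and 7 negative means over 12 probes (median -0.00367) and an exact 0 on all arrays for Tfb2m. There Tfb1m, which methylates the small-subunit ribosomal RNA, had -0.0890, -0.109, -0.197, -0.157 and -0.0460 on replicates 1 to 5, negative on each (limma adjusted p = 0.0671).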

How the data were processed

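The deposited table holds 1 log ratio per probe and array for 20868 probes and 5 arrays. The authors' image analysis, background correction and normalization are not given in the sources used here; per the labels' protocols 20 µg of total RNA was labelled directly. Deposited ratios were taken to be log10, and the base is not stated. Their centring and exact zeros would be the same in any base, so this reading rests on their range and remains an assumption. The table has 0 columns of other samples.

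Gene names came from the platform's annotation table. Of the probes, 17786 had 1 symbol, 16 had several and 3066 none; 1 probe with several symbols, a member among them, was left out.

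An intercept-only model was fitted to all probes in limma 3.58.1 under R 4.3.3 (functions lmFit and eBayes), with Benjamini-Hochberg adjustment over all of them and a threshold of 0.05. The fit was checked on simulated data with shifts far larger than any member's mean, so the check does not bear on calls of this size. Printed values are means ± SD over n = 5 arrays in deposited units. Detectable folds came from each probe's SD (scipy 1.17.1). Members, lists and tests were chosen with earlier results of these data known, so lists are described by counts and medians only. Named genes follow a rule: members called, the 6 highest and 6 lowest means, the 4 largest and smallest SDs, genes with several probes, disease genes, members with exact zeros, and related genes; remaining members are given by their mean. Related genes of smallest p, the S18 paralogues, Tufm, Mrpl12 and members near the threshold were picked out after their values were seen. Alternatives were scaling, quantile normalization, array weights, robust moderation, zeros as missing (at least 3 values kept), gene averages, each array left out, and a log2 reading; moving Mrps18a and Mrps30 to the large subunit was chosen after seeing the data.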

Additional observations from a re-analysis of the deposited data

Results flagged for a closer look

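For 13 of the 76 member probes with any spread, 1 array lay far from the other 4 by Dixon's criterion for 5 values, beside 14.2% of all such probes. Chance alone flags about 1 in 20 groups for values without outliers, and exact zeros crowd values together: among probes with no exact 0 it was 5 of 63 members and 9.02% of all probes. The far array was replicate 1 for 1 member, replicate 2 for 4, replicate 4 for 4 and replicate 5 for 4.

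With no exact 0, these were Mrpl58 at -0.141 on replicate 5 (others -0.0283 to 0.0165), Mrpl40 feature 3982 at -0.0335 on replicate 5 (others -0.0175 to -0.0130), Mrpl4 at -0.0212 on replicate 2 (others 0.0210 to 0.0330), Mrpl22 at 0.300 on replicate 5 (others -0.0389 to 0.0499) and Mrps2 at -0.0448 on replicate 4 (others -0.0274 to -0.0234). With zeros among the values they were Mrpl3 at -0.141 on replicate 1, Mrpl36 at -0.212 on replicate 5, Mrpl18 at 0.0706, Mrps5 at -0.174 and Mrps25 at 0.410 on replicate 2, and Mrpl17 at 0.0983, Mrpl53 at 0.186 and Mrps36 at -0.162 on replicate 4. The large-subunit median on replicate 4, 0.0187, also lay far from those of the other arrays.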

How the results depend on the processing

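The number of members called moved with the fit: 1 as reported and with quantile normalization, 3 after scaling (Mrpl27, Mrps18c and Mrps26), 5 with array weights (Mrpl27, Mrps18c, Mrpl43, Mrpl14 and Mrpl52), and 0 with robust moderation, with zeros as missing or with gene averages. Over all probes the counts were 713, 529, 956, 1581, 250 and 578, and 405 of the genes. With any array left out 0 members were called (lowest 0, highest 0), when 4 to 63 of all probes were, a setting that by its construction has fewer arrays. Subunit medians kept their sign in each setting run for them. The median SD of members was 0.0299 to 0.0368 with an array left out, and 14 members with an exact 0 became 10 without replicate 5. If the ratios are log2, the median smallest detectable fold is 1.04.

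Of the 77 member probes, 57 kept the sign of their mean in every setting run for them; with zeros as missing, 70 had a value. Mrpl53 and Mrps36 came to exactly 0 without replicate 4, and Mrpl15, at 0 as reported, to -8.67e-05 after quantile normalization. Signs changed as follows, also for means not near 0 such as that of Mrps25 (0.0788 as reported), and the cause was not tested. After scaling Mrpl35 was 0.00225, Mrpl16 0.000941 and Mrpl39 -0.000252; after quantile normalization Mrpl35 was 0.00262 and Mrpl16 0.00119. With array weights Mrpl57 was 0.00359, Mrpl35 0.0308, Mrpl30 0.000875, Mrpl16 0.00886, Mrpl47 -0.00769 and Mrps35 0.000558. With 1 array left out, means ranged from -0.0136 to 0.00703 for Mrpl16, -0.00217 to 0.0246 for Mrpl17, -0.0204 to 0.00916 for Mrpl33, -0.0529 to 0.0381 for Mrpl35, -0.0558 to 0.0128 for Mrpl36, -0.0102 to 0.0230 for Mrpl39, -0.0121 to 0.0338 for Mrpl45, -0.0480 to 0.0530 for Mrpl47, -0.0418 to 0.00558 for Mrpl57, -0.00285 to 0.0235 for Mrps14, -0.0788 to 0.0756 for Mrps18b, -0.00181 to 0.0168 for Mrps22, -0.00406 to 0.103 for Mrps25, -0.0400 to 0.00552 for Mrps34, -0.0126 to 0.00268 for Mrps35 and -0.0436 to 0.00384 for Mrps5.

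No paired analysis was possible because all arrays form 1 group. Without brightness, how far a ratio rests on dim probes cannot be given.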

Other observations

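Feature 4431, left out because its annotation names both Mrps25 and the nuclear receptor gene Nr2c2, was listed at 0 on replicates 2 and 5 and gave 0.0194, 0.336 and 0.511 on replicates 1, 3 and 4. The probe of Mrps25 alone had its far-out value on replicate 2, where feature 4431 was at 0.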
